A study of Equus caballus with 8 samples.

Results

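The 9 mineralization genes described here, ALPL, PHOSPHO1, IBSP, ENPP1, ANKH, MGP, SPP1, STC1 and STC2, encode proteins that promote or block the deposition of mineral. They were picked by gene symbol, and all 9 had a row among the 15266 named genes of the normalized count table. RNA-sequencing was performed on mesenchymal stem cells from bone marrow (BM-MSCs), stromal cells of the sternum that adhere to plastic, of 4 horses labelled D, J, L and W. The marrow of each horse was divided into an untreated culture and a culture that received 1 ng/ml recombinant human transforming growth factor-β2 (TGF-β2), which gave 4 untreated and 4 TGF-β2-treated libraries, 1 per horse and treatment. Both groups were grown in low glucose medium with fetal bovine serum and, per the study's methods, basic fibroblast growth factor, with no medium that induces bone formation named. Per the labels the treatment ran from isolation through passage 3 or 4, whereas the study's methods give 3 passages. The horses were adult Thoroughbreds or Thoroughbred crosses whose individual ages are not given in the sources used here. The study's methods give an age range only for all its horses together, and state that mares and geldings were equally represented in each experiment.

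Mineral forms where free phosphate and calcium rise and where inorganic pyrophosphate, which coats young crystals and stops their growth, is removed. Cells supply pyrophosphate outside the membrane through ENPP1 and ANKH and destroy it with the phosphatase ALPL, while matrix proteins such as MGP and phosphorylated SPP1 bind mineral directly. Marrow stromal cells can form bone, and ALPL and IBSP are common markers of that path, whereas mineral inside a healing tendon is an unwanted outcome.

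A normalized count is a gene's read count divided by a size factor for its library, and changes are given as log2(normalized count + 1) in the treated minus the untreated library of the same horse. A gene was called where limma, fitted with a term for each horse, gave both a log2 fold change beyond 1 in either direction and a p below 0.05 after Benjamini-Hochberg adjustment. Between 40044240 and 57228675 reads were counted in named genes per untreated library (median 44390354.5) and 39184554 to 46634539 per treated library (median 43212788), and a floor of 3 reads equalled 2.02 to 3.60 normalized counts. The stromal markers ITGB1, CD44, THY1, ENG and NT5E were present in all 8 libraries. The summed leukocyte markers lay between 51.3 and 347 normalized counts in the untreated and between 29.8 and 123 in the treated libraries, with the highest sum in the untreated library of horse J (PTPRC 110 and CD3E 112 normalized counts). Horse J stood apart in its response. Of the 2486 genes called from the other horses, 86.4% changed in the same direction in horse J. The share was 96.8% to 99.5% for each of the other horses left out in the same way. Those shares rest on other gene sets, called with horse J included (1176, 1890 and 1085 genes without horse D, L and W). Results are given with and without horse J where it matters.

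The 9 genes fell into groups by the agreement of the horses. STC2 and ENPP1 were higher after TGF-β2 in every horse, ANKH and MGP were lower in every horse, and ALPL, IBSP, PHOSPHO1, SPP1 and STC1 went in opposite directions in different horses. STC2 rose (log2 fold change 3.83) and ANKH and MGP fell (-1.33 and -1.65), so that 3 of the 9 genes were called, where 14.1% of the 14907 tested genes were called (6.83% higher and 7.31% lower). Scaling by total reads instead, which shifted the median gene by -0.30, turned the 1018 higher and 1090 lower calls over all genes into 698 and 1839 and called the same 3 mineralization genes in the same directions. In STC2 alone did the treated and untreated libraries not overlap, which was the case for 27.8% of all tested genes (13.9% with the treated libraries above and 13.9% with them below). The median log2 fold change of the 9 genes was -0.77, against 0.0055 for all tested genes. All 9 genes passed the filter on low values, a normalized count of 10 or more in 4 or more libraries.

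**Figure D1:**
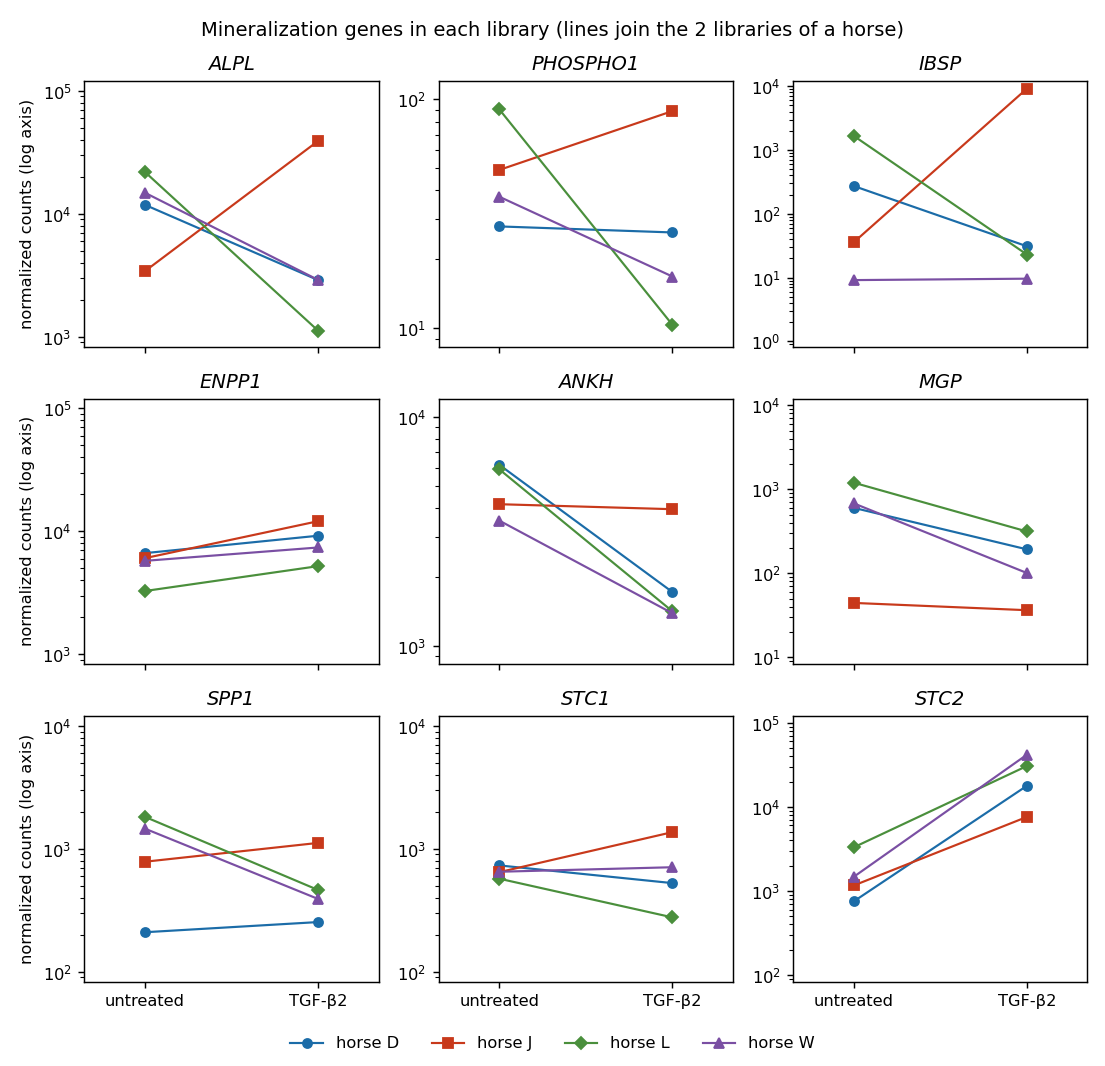
Normalized counts (log axis, with a different range in each panel) of the 9 mineralization genes in the untreated and the TGF-β2-treated library of horses D, J, L and W, 1 point per library, with lines joining the libraries of a horse. The line of horse J crosses those of the other horses in ALPL and those of horses D and L in IBSP. The treated library of each horse lies above its untreated one in STC2 and ENPP1.

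Among the genes that promote mineral deposition, ALPL, the tissue-nonspecific alkaline phosphatase that splits pyrophosphate into phosphate, was lower after treatment in 3 horses and higher in the other. Untreated libraries held 11833, 3405, 21928 and 14840 normalized counts in horses D, J, L and W, and treated libraries held 2890, 39045, 1121 and 2900. The library of horse J was thus the lowest of the untreated and by far the highest of the treated group, and the groups overlapped. ALPL was 4.10-fold, 19.6-fold and 5.12-fold lower after treatment in horses D, L and W and 11.5-fold higher in horse J. Over the 4 horses the log2 fold change was -1.29 (SE 1.23, 95% interval -4.35 to 1.77, adjusted p = 0.459), and ALPL was not called. Without horse J it was -2.89 (SE 0.44, adjusted p = 0.00836), past both thresholds, over a fit in which 16.7% of genes were called. In bulk RNA fewer cells of a type and less RNA per cell cannot be told apart.

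IBSP, the integrin-binding sialoprotein of bone that nucleates mineral, had the most divergent response. It was present at 272, 35.7, 1662 and 9.13 normalized counts in the untreated libraries of horses D, J, L and W, and at 31.0, 9128, 23.0 and 9.61 in the treated ones. Treated cells of horse J held the highest level, and both libraries of horse W lay near the bottom, with 9 and 8 reads. The level was 256-fold higher after treatment in horse J, 8.79-fold lower in horse D and 72.3-fold lower in horse L, and the log2 change in horse W was 0.07. The fitted log2 fold change was -0.30 (SE 2.22, 95% interval -5.82 to 5.22, adjusted p = 0.931), an interval that spans large changes either way. Without horse J it was -3.05 (adjusted p = 0.0864).

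The SD of the 4 log2 changes of IBSP was 6.05, the largest of the 14907 tested genes, and that of ALPL was 3.36, the 19th largest in rank. The median over all tested genes was 0.31. ENPP1 alone among the 9 genes had a value below that median, with an SD of 0.28, and the other 6 genes lay between 0.89 and 1.65.

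PHOSPHO1, the phosphatase that frees phosphate inside matrix vesicles, was scarce in all libraries. Normalized counts were 27.8, 49.1, 90.5 and 37.5 in untreated horses D, J, L and W and 26.2, 88.9, 10.3 and 16.8 after treatment, from 9 to 96 reads per library. Horses L and W were lower after treatment, horse J was higher and horse D differed by -0.08 on the log2 scale. PHOSPHO1 was not called (log2 fold change -0.84, SE 0.64, 95% interval -2.42 to 0.74, adjusted p = 0.354), nor was it without horse J (-1.40, adjusted p = 0.118).

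The genes that supply pyrophosphate moved apart. ENPP1, the ectoenzyme that makes pyrophosphate from ATP, held 6643, 6045, 3267 and 5750 normalized counts in untreated horses D, J, L and W and 9205, 12079, 5205 and 7385 after treatment. Each horse was higher after treatment, by 0.36 to 1.00 on the log2 scale, although the groups overlapped because horse L was low in both. The log2 fold change of 0.63 (SE 0.12, 95% interval 0.32 to 0.94), or 1.54-fold, had an adjusted p of 0.0178 by limma but was below the fold threshold. The adjusted p alone was passed by 30.9% of all tested genes, and by 15.7% upward. In a fit with no term for the horse the adjusted p was 0.170, and it was 0.0523 to 0.0642 without horse D, L or W. Scaling by total reads gave ENPP1 a log2 fold change of 0.31 (adjusted p = 0.123).

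ANKH, the membrane protein through which ATP and pyrophosphate leave the cell, fell. Its normalized counts were 6175, 4154, 5901 and 3523 in untreated horses D, J, L and W and 1716, 3950, 1414 and 1386 after treatment. In horses D, L and W the treated library was 3.60-fold, 4.17-fold and 2.54-fold lower, whereas the libraries of horse J differed by -0.07 on the log2 scale and account for the overlap between the groups. The log2 fold change was -1.33 (SE 0.33, 95% interval -2.16 to -0.50, adjusted p = 0.0332), and without horse J it was -1.75 (adjusted p = 0.00204). The call was lost without horse D (adjusted p = 0.132), L (0.0966) or W (0.126), and without the intensity trend in limma (0.0544).

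MGP, matrix Gla protein, a vitamin K-dependent inhibitor of calcification, also fell. Untreated libraries of horses D, J, L and W held 602, 44.4, 1200 and 681 normalized counts, and treated ones held 193, 36.4, 315 and 101. Every horse was lower after treatment, 3.12-fold, 1.22-fold, 3.81-fold and 6.75-fold in the same order, and both libraries of horse J were far below the rest. The log2 fold change was -1.65 (SE 0.40, 95% interval -2.63 to -0.66, adjusted p = 0.0296). The call depended on comparing each horse with itself, since with no term for the horse the adjusted p was 0.300. It was also lost without horse D (0.109), L (0.0929) or W (0.105), whereas without horse J the log2 fold change was -2.10 (adjusted p = 0.00377).

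SPP1, osteopontin, a phosphorylated glycoprotein that binds mineral and restrains its growth and that macrophages also make, divided the horses into pairs. Normalized counts were 210, 786, 1824 and 1462 in untreated horses D, J, L and W and 254, 1118, 463 and 392 after treatment. Horses L and W were 3.94-fold and 3.73-fold lower after treatment, and horses D and J were 1.21-fold and 1.42-fold higher. SPP1 was not called (log2 fold change -0.77, SE 0.50, 95% interval -2.02 to 0.47, adjusted p = 0.286). Of the 9 markers of macrophages and osteoclasts 6 had a row, and they did not follow SPP1 as a list. CTSS, by far the most abundant of the 6, was lower after treatment in every horse, with a log2 change of -0.02 in horse L. It held 2491, 7466, 1124 and 2576 normalized counts in untreated horses D, J, L and W and 1109 to 1734 after treatment. The sum of all 6 was therefore highest in untreated horse J (7487) and lowest among the untreated in horse L (1555), where SPP1 was highest. The other 5, CSF1R, CD163, TYROBP, ACP5 and OSCAR, summed to 431 and 343 normalized counts in untreated horses L and W and 109 and 98.5 after treatment, but to 18.2 to 61.8 in the libraries of horses D and J, and this split was made after the values were seen. None of the 6 was at 0 in every library. Their part in the SPP1 values was not tested.

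The stanniocalcins, secreted glycoproteins first known from the calcium control of fish that in mammals act on phosphate uptake and block the proteinase PAPPA, gave unlike results. STC1 held 733, 646, 572 and 651 normalized counts in untreated horses D, J, L and W and 526, 1368, 277 and 709 after treatment. Untreated libraries lay close together and treated ones spread to both sides of them, with horse J highest and horse L lowest. The log2 fold change was -0.08 (SE 0.34, 95% interval -0.94 to 0.78, adjusted p = 0.880).

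STC2 rose from 749, 1159, 3296 and 1469 normalized counts in horses D, J, L and W to 17797, 7587, 30615 and 41762. Even the lowest treated library, that of horse J, lay above the highest untreated one, that of horse L. The level was 23.8-fold, 6.55-fold, 9.29-fold and 28.4-fold higher in horses D, J, L and W. Group means were 1668 ± 1125 untreated and 24440 ± 14903 treated (SD, n = 4). The log2 fold change of 3.83 (SE 0.38, 95% interval 2.88 to 4.78, adjusted p = 0.00309), or 14.2-fold, ranked 120 among the 14907 tested genes. STC2 was called under all 17 alternative settings, with log2 fold changes of 3.50 to 4.20.

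**Figure D2:**
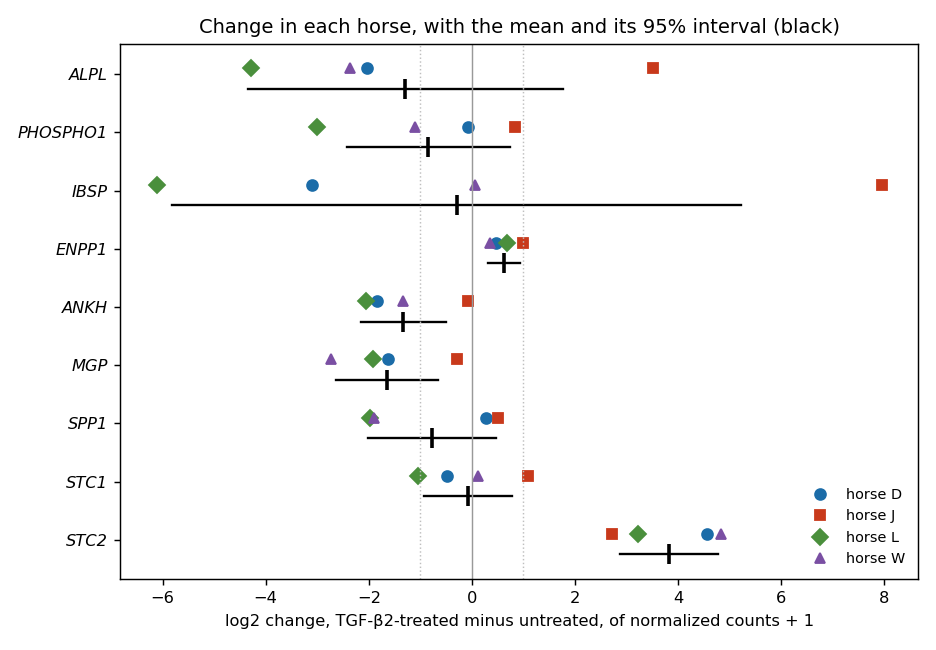
Log2 change (TGF-β2-treated minus untreated, of normalized counts + 1) of each mineralization gene in horses D, J, L and W (coloured points), with the limma mean and its 95% interval in black. Horse J is farthest to the right in 8 of the 9 genes and farthest to the left in STC2, and the widest interval is that of IBSP.

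Horse J had the highest change of the 4 horses in 8 of the 9 genes, and in STC2 it had the lowest. Over all tested genes horse J was highest in 32.7% and lowest in 33.7%. ALPL was among 35 genes (0.235% of those tested) that were higher by more than 1 on the log2 scale in horse J and lower by more than 1 in each of the other horses. No gene met the same rule for horse D or W, and 1 did for horse L. The summed osteoblast and osteocyte markers SP7, IFITM5 and PHEX moved along with ALPL and IBSP in horse J, at 3762 normalized counts after treatment against 281 to 478 in the other treated libraries and 1447 to 3695 in the untreated ones. Almost all of that sum was SP7 (3705 in treated horse J), while IFITM5 was lower after treatment in horse J as in the rest, and BGLAP, DMP1 and SOST of the same list had no row in the table. Their part in the values of horse J was not tested, and with 1 culture per treatment the response of a single horse has no replicate.

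Ratios of a pair of genes within a library leave the size factor out almost entirely and are given as a description. The log2 ratio of ENPP1 to ANKH was higher after treatment in all 4 horses, by 2.32, 1.07, 2.73 and 1.71 in horses D, J, L and W (mean 1.96 ± 0.73, SD, n = 4). That of STC1 to STC2 was lower in all 4, with changes of -5.05, -1.63, -4.26 and -4.71 (mean -3.91 ± 1.55). The ratio of ALPL to ENPP1, an enzyme that destroys pyrophosphate over one that makes it, changed by -2.50, 2.52, -4.96 and -2.72 (mean -1.92 ± 3.16), so that horse J moved up by about as much as horses D and W moved down. ALPL to ANKH changed by -0.19, 3.59, -2.23 and -1.01, and its mean of 0.04 ± 2.51 was -1.14 without horse J. The ratio of SPP1 to MGP was higher in 3 horses and about the same in horse L (1.91, 0.79, -0.05 and 0.84), and that of PHOSPHO1 to ALPL was higher in all but horse J (1.95, -2.68, 1.28 and 1.24).

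**Figure D3:**
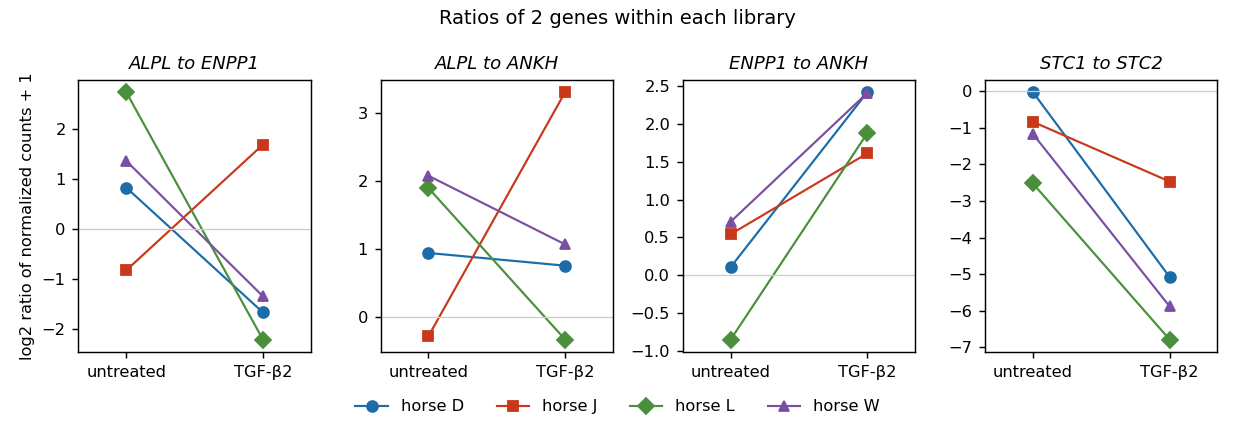
Log2 ratios of normalized counts + 1 for 4 pairs of mineralization genes in each untreated and TGF-β2-treated library, with lines joining the libraries of a horse and a grey line at 0. After treatment ENPP1 to ANKH is higher and STC1 to STC2 lower in all 4 horses, while ALPL to ENPP1 and ALPL to ANKH are higher in horse J and lower in the others.

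The surroundings of these genes were described with 6 lists of 81 other genes, of which 60 passed the filter. Of the 60 genes 22 were called, 11 higher and 11 lower (36.7%, against 14.1% of all tested genes), and 19 were called without the horse as a block. The lists were chosen with earlier results of these data known, so these shares are no test of enrichment. Of the 22, 10 were called whichever horse was left out.

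Of 15 tested genes that make, move or split pyrophosphate, phosphate and the nucleotides they come from, 1 rose and 3 fell. ENTPD1, which splits extracellular ATP and so competes with ENPP1, rose from between 0.870 and 12.2 normalized counts to between 12.8 and 207 (log2 fold change 3.39, adjusted p = 0.00973). SLC29A1, a nucleoside transporter, fell by 2.04 on the log2 scale (adjusted p = 0.0206), and P2RX7, an ATP-gated channel, fell by 2.29 (adjusted p = 0.0284), both in every horse. ACP5, the tartrate-resistant acid phosphatase and a marker of osteoclasts and macrophages, fell by 2.94 (adjusted p = 0.0448) but was not called without the block (adjusted p = 0.133), without the intensity trend (0.0623) or with a pseudocount of 5 (0.0566). The calls of ENTPD1, ACP5 and P2RX7 were lost without horse D or W, and that of SLC29A1 without horse D or L. The phosphate transporters SLC20A1 and SLC20A2 of the same list were not called (-0.19 and 0.63).

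None of the 9 tested matrix vesicle genes was called by limma, and none by DESeq2 or edgeR. At an adjusted p under 0.05 with any fold 3 of the 9 were lower, where 30.9% of all tested genes passed in either direction. These were SLC44A1 and SLC44A2, choline transporters (log2 fold change -0.98, adjusted p = 0.00326, and -0.61, adjusted p = 0.0180), and ANXA5, a calcium-binding annexin of the vesicle membrane (-0.46, adjusted p = 0.0399). SLC44A1 lay near the fold threshold and was called lower without horse D (-1.05) or J (-1.01) and, together with ENPP6 (-1.15), under total scaling (-1.29). SLC20A1, SLC20A2 and these matrix vesicle genes were chosen for mention after their values were seen.

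Of 11 tested genes of the mineral-binding matrix, SPARC and SMOC2 rose and FAM20A and SMOC1 fell. SPARC, osteonectin, a collagen- and calcium-binding protein, rose from between 62177 and 285417 normalized counts in the untreated libraries to between 575966 and 1167090 in the treated ones (log2 fold change 2.60, adjusted p = 0.00487). SMOC2, a calcium-binding relative of SPARC, rose from at most 14.2 to at least 208 (5.83, adjusted p = 0.00226), whereas its paralog SMOC1 fell by 2.19 (adjusted p = 0.0372), with a change of -0.16 in horse J. FAM20A, the partner of the kinase that phosphorylates SPP1 and other secreted proteins, fell by 5.48 (adjusted p = 0.00177), from between 3662 and 10373 normalized counts to between 29.9 and 254. The call of SMOC1 was lost without horse D, L or W, and without the intensity trend (adjusted p = 0.0588).

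Of 17 tested regulators and markers of osteoblasts, 4 rose and 5 fell. IFITM5, a protein of mature osteoblasts, fell by 4.30 (adjusted p = 0.00135) and TWIST1, a repressor of osteoblast maturation, fell by 2.47 (adjusted p = 0.00145), each in all 4 horses. MSX1 fell by 1.57 (adjusted p = 0.00284) and its relative MSX2 rose by 1.70 (adjusted p = 0.00705), both homeobox factors. DLX3, another homeobox factor, fell by 1.80 (adjusted p = 0.0146), and PTH1R, the receptor for parathyroid hormone, fell by 4.14 (adjusted p = 0.0236) with a change of -0.54 in horse J. PDPN, a glycoprotein of early osteocytes and many stromal cells, rose by 1.51 (adjusted p = 0.00496), SOX9, the cartilage regulator, by 1.21 (adjusted p = 0.0175) and TMEM119, known from osteoblasts and microglia, by 1.52 (adjusted p = 0.0272). Without the block DLX3 (adjusted p = 0.0850) and TMEM119 (0.110) were not called, nor was TMEM119 by DESeq2 without the horse (0.0594). The call of PTH1R was lost without horse D, L or W, those of SOX9 and TMEM119 without D or W, and that of DLX3 without W. Under total scaling SOX9 fell short of the fold threshold (0.90), and edgeR gave PTH1R an adjusted p of 0.0512.

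Other genes of the list were not called by limma with every horse included. SP7, osterix, changed by -1.38, 1.85, -3.45 and -2.29 in horses D, J, L and W (log2 fold change -1.32, adjusted p = 0.275), the pattern of ALPL. DLX5, named here after its values were seen, changed by -1.92, 1.37, -2.24 and -1.19 (-0.99, adjusted p = 0.256). Without horse J both passed the thresholds (-2.38, adjusted p = 0.00960, and -1.78, adjusted p = 0.00431). RUNX2 and BMP2 were also named after their values were seen. RUNX2 changed by -0.79, 0.48, -0.35 and -0.44 (-0.27, adjusted p = 0.36), and BMP2, a bone-inducing ligand, by 0.49, 2.60, 0.41 and 1.23 (1.18, adjusted p = 0.0646). BMP2 was higher in every horse, and DESeq2 with the horse called it (log2 fold change 1.16, adjusted p = 0.00937). Neither edgeR nor DESeq2 without the horse did.

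Of 4 tested genes of calcium and phosphate hormones, CYP27B1, which activates vitamin D, rose by 1.14 (adjusted p = 0.0141), and PTHLH, parathyroid hormone-related protein, rose from at most 5.39 normalized counts to between 69.7 and 145 (log2 fold change 5.24, adjusted p = 0.00255). The other two were not called, and the call of CYP27B1 was lost without horse D or W and under total scaling (0.84). Of 4 tested partners of the stanniocalcins, PAPPA, the proteinase that STC2 blocks, rose by 2.43 (adjusted p = 0.0125), IGFBP5, one of its substrates, rose by 8.94 (adjusted p = 0.00230) and IGFBP4, another substrate, fell by 1.55 (adjusted p = 0.0123). IGFBP5 went from between 9.13 and 21.7 normalized counts untreated to between 1018 and 34463 treated. STC2 and PAPPA were thus both higher after treatment in all 4 horses, with the smallest STC2 change in horse J and the smallest PAPPA change in horse D. The calls of PAPPA and IGFBP4 were lost without horse W.

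**Figure D4:**
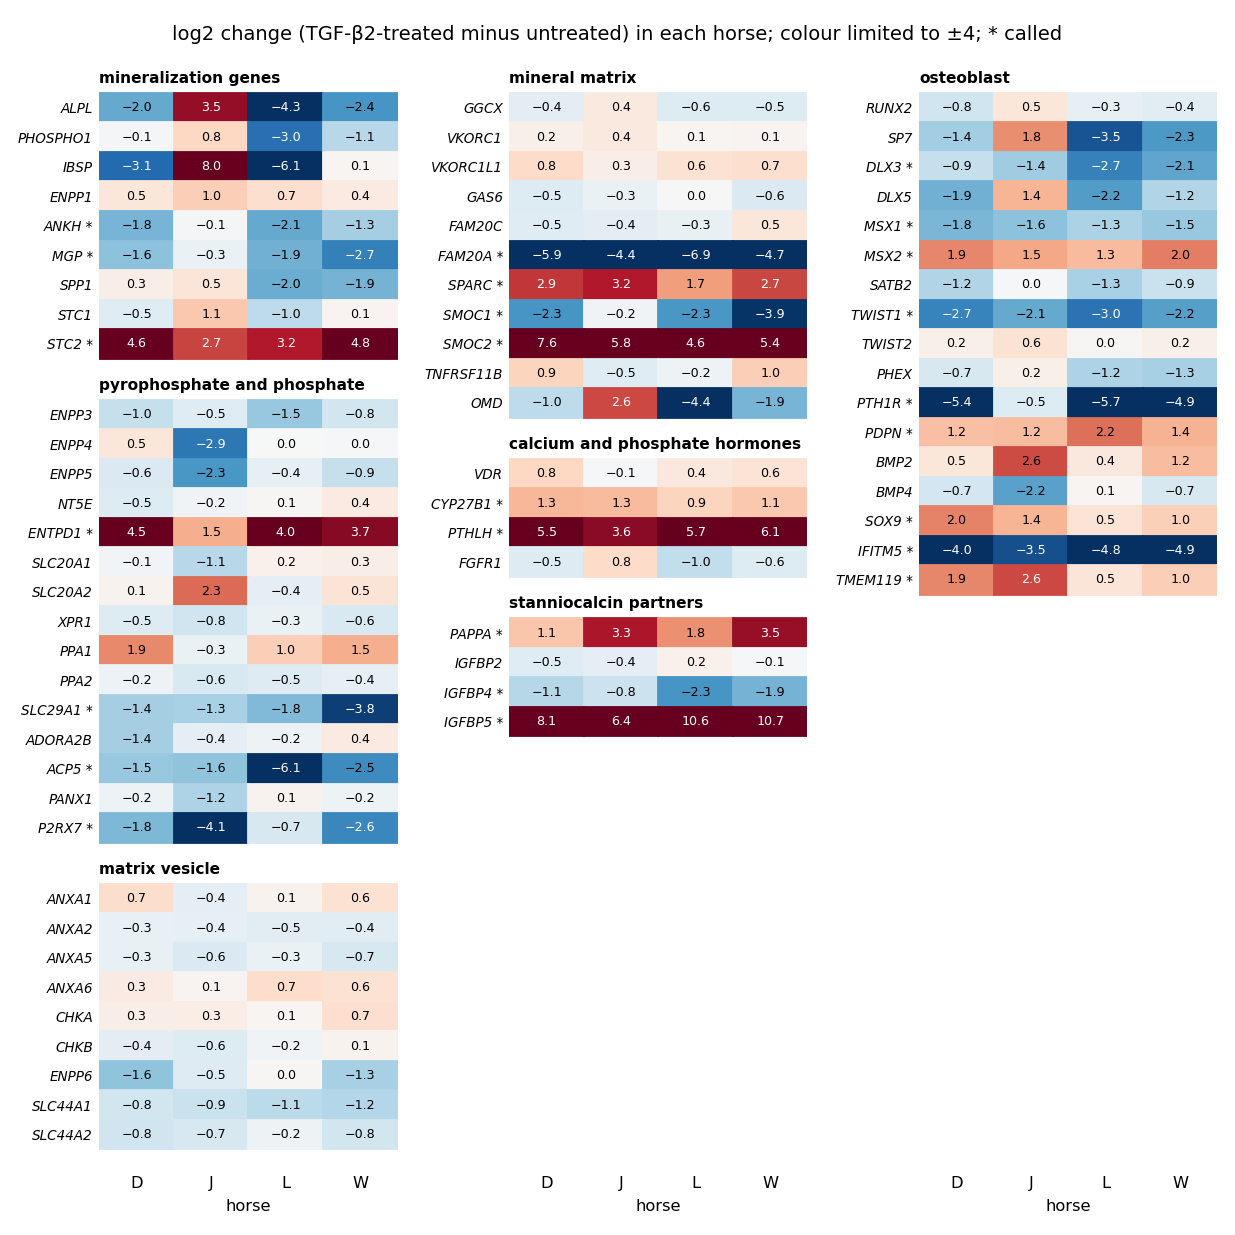
Log2 change (TGF-β2-treated minus untreated, of normalized counts + 1) in horses D, J, L and W for the 9 mineralization genes and the 60 tested genes of the 6 lists, red for higher and blue for lower, with the value printed in each cell and an asterisk on called genes. The cells of horse J are red and the others blue in ALPL, SP7, DLX5 and OMD, whereas IFITM5, TWIST1, FAM20A, SMOC2, PTHLH, IGFBP5 and STC2 have a single colour across the 4 horses.

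The genes whose levels were most like each mineralization gene over the 8 libraries, by Pearson's r of log2(normalized count + 1), are given as a description, since the 8 libraries come from 4 horses and share the treatment. ALPL was closest to PDGFRL (0.978), LRRC17 (0.958) and OMD (0.936), a keratan sulfate proteoglycan of bone. OMD changed by -1.04, 2.63, -4.44 and -1.87 in horses D, J, L and W and LRRC17 by -2.15, 2.75, -4.89 and -2.23, both with horse J opposite to the rest. IBSP was closest to CD200 (0.960), MOB3B (0.925) and IFNAR1 (0.907), and PHOSPHO1 to PXYLP1 (0.940), SP7 (0.938) and GNAI3 (0.927). STC2 was closest to HOXB9 (0.993), AJUBA (0.990) and DES (0.987), which were higher after treatment in every horse.

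ENPP1 was closest to GTF2H5 (0.970), BHLHE40 (0.949) and CHRNA5 (0.947), and ANKH was close to TSKU (0.977) and IRS1 (0.974). MGP was closest to TCEA2 (0.979), KCNIP2 (0.969) and BAIAP2 (0.968). SPP1 was closest to PDCD7 (0.920), C28H12orf29 (0.918) and EPB41L2 (0.916), and STC1 to TTLL7 (0.941), OSBPL7 (0.941) and LOC106782338 (0.938). No mineralization gene was among the nearest genes of another. ALPL and PHOSPHO1 had an r of 0.843 and ALPL and IBSP one of 0.749. In the gene order of the RefSeq table of a newer horse assembly, IBSP and SPP1 lie beside each other with 1 protein-coding gene, MEPE, between them, yet IBSP was highest in treated horse J and SPP1 in untreated horse L.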

How the data were processed

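Libraries were made from poly(A)-selected RNA and read from both ends. For the 8 libraries the authors used Trimmomatic 0.36 for trimming, STAR 2.5.2b for alignment to the horse genome EquCab 3.0, featureCounts (Subread 1.5.2) for unique gene hits and DESeq2 for the comparison. The strand setting is not given in the sources used here. They deposited normalized counts, a signal equal to reads divided by a library's size factor, and 100% of values came out as whole reads (within 0.01 of a read) when divided by the value of 1 read. Of 15267 rows, 1 had no gene name (0.0281% to 0.0531% of reads) and was left out. The smallest sum of reads of a listed gene was 81, so genes with fewer may have been left out before deposit.

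The 14907 genes with a normalized count of 10 or more in 4 or more libraries (3 or more with a horse left out) were tested in R 4.3.3 by limma 3.58.1 (eBayes with trend) on log2 of the normalized count plus 1, which understates changes of low genes, with the horse as a block and p adjusted over all tested genes. The letters pair the libraries because each pair comes from the marrow of 1 horse. Libraries of a horse deviated together from their group means (mean correlation of deviations 0.480, range 0.386 to 0.609). The mean between horses was -0.159. Deviations from a group mean cancel within the group, so its negative sign follows from the centring and adds nothing to the pairing. With the horse as a block, p-values measure the spread of the changes between horses. With 1 culture per horse and treatment, culture and treatment cannot be told apart within a horse. Intervals of read counts and the floor of 3 reads cover counting error only. Alternatives used pseudocounts 0.5 and 5, no filter or a filter at 50, total, upper-quartile and TMM scaling, no block, no trend, DESeq2 1.42.0, edgeR 4.0.16 on the recovered reads, no fold threshold, and each horse left out.

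Named are the 9 mineralization genes, every called gene of the 6 lists, and the 3 genes most correlated with each of the 9. One item that this rule covers is not reported here. Members and lists were chosen with earlier results of these data known. Of the marker genes with a row, 1 of 2 endothelial (KDR) and 1 of 1 adipocyte markers (ADIPOQ) were called higher. Called lower were 1 of 5 stromal (THY1), 1 of 4 leukocyte (ITGB2) and 1 of 6 macrophage markers (ACP5). So were 1 of 3 chondrocyte (MATN3) and 1 of 3 osteoblast markers (IFITM5), where 14.1% of all tested genes were called. KDR had 1 to 22 reads in the untreated libraries and MATN3 2 to 12 in the treated ones. Whether the mix of cell types differed was not tested. Transcript lengths were not used, so levels are compared within a gene only, and coordinates and sequences are not printed. Procedures were tested on simulated data.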

Additional observations from a re-analysis of the deposited data

Results flagged for a closer look

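In 91 groups of 4 values, 12 had 1 value past the critical value of Dixon's test at the 95% level. The test takes the gap to the nearest other value, divided by the range of the group. The chance rate of about 1 in 20 holds for normally distributed values. It does not apply to normalized counts without a log, in which all 12 lay, so the number is no measure of an excess. The groups were the untreated and the treated normalized counts of the 9 mineralization genes and of 32 named genes of the lists, and the 9 sets of log2 changes of the mineralization genes, of which none passed. The 32 were the called genes and 10 chosen after their values were seen. The treated library of horse J gave 6 of the 12, with 39045 normalized counts of ALPL (1121 to 2900 in the other treated libraries), 9128 of IBSP (9.61 to 31.0), 3950 of ANKH (1386 to 1716), 3705 of SP7 (251 to 434), 4520 of OMD (408 to 902) and 4404 of SLC20A2 (1378 to 1803). The untreated library of horse L held 1662 normalized counts of IBSP (9.13 to 272 in the other untreated libraries), 358 of PTH1R (31.6 to 65.9), 6906 of TMEM119 (1392 to 2131) and 3310 of SP7 (1029 to 1236). ACP5 was at 26.4 normalized counts in treated horse W (1.07 to 3.57), and BMP2 at 1756 in untreated horse D (429 to 549).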

How the results depend on the processing

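STC2 kept its call under all 17 alternatives. ANKH was called under 13 of 17 and MGP under 12. With 4 horses, the ALPL adjusted p ranged from 0.181 to 0.926. The number of mineralization genes called was 1 to 4 with a horse left out, 1 (STC2) without horse D, L or W and 4 without horse J, where ALPL joined. Genes called over the whole table numbered 1085 (without W) to 2486 (without J), with 1176 without horse D, and 4610 with no fold threshold. Genes called in the 6 lists numbered 11 (without W) to 30 (without J), with 14 without D. Total scaling moved the split of the list calls from 11 higher and 11 lower to 9 and 17. Without the horse as a block, 2 mineralization genes (ANKH and STC2), 19 list genes and 1709 genes overall were called, MGP was lost (adjusted p = 0.300), and no other call among the 9 changed. DESeq2 without the horse also lost MGP (adjusted p = 0.0536) and turned the direction of IBSP to 2.21 and of STC1 to 0.14, neither called at any setting. Leaving out a horse gave IBSP log2 fold changes from -3.05 to 1.64 (0.64 without D) and STC1 from -0.47 to 0.24 (0.05 without D), a change of the ALPL to ANKH ratio from -1.14 (without J) to 0.80, and of PHOSPHO1 to ALPL from -0.052 (without D) to 1.49. The causes of these changes were not tested. A filter at 50 left IBSP, PHOSPHO1 and the called list genes ENTPD1, ACP5, MSX2, PTH1R and CYP27B1 out of the test. The 8 to 96 reads per library of PHOSPHO1 and of IBSP in horse W limit their precision.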
